A study of Homo sapiens with 12 samples.

Results

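E-cadherin (CDH1), the cell adhesion protein EPCAM, the tight-junction genes CLDN3, CLDN4, CLDN7, TJP1 and OCLN, and the mesenchymal genes VIM, ZEB1 and SNAI2 were followed through a hypoxia time course in HCT116 cells. They are 10 of the 56537 gene names in the transcript table and were chosen by name, as genes commonly used to describe the epithelial or mesenchymal state of a cell. The level of a gene was the sum of the deposited FPKM (fragments per kilobase and per 1000000 mapped fragments) over its transcripts whose class code was = (the intron chain of the reference) or j (at least 1 splice junction shared with it). A gene was tested if this sum was above 0.5 FPKM in at least 3 libraries, which held for 9 of the 10 genes and for 16680 gene names in all. SNAI2 did not pass, and its values are given without a test.

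HCT116 is an established cell line from a human colorectal carcinoma. The cells grew in RPMI-1640 with foetal bovine serum and were either kept at 21% oxygen (0 h) or moved, 24 h after plating, to 1% oxygen for 1, 2 or 24 h. Each of the 4 time points had 3 biological replicates, giving 12 libraries of poly(A) RNA sequenced in a strand-specific manner. Neither the labels nor the methods give the age of the 0 h culture at harvest, so the effect of a longer culture and that of low oxygen cannot be told apart at 24 h. In such bulk RNA, fewer cells expressing a gene and less of its RNA per cell cannot be told apart either.

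Epithelial cells are held together by adherens junctions, in which E-cadherin binds neighbouring cells and is anchored inside by catenins, and by tight junctions, in which claudins and occludin seal the space between cells and are tied to actin by zonula occludens proteins such as TJP1 (ZO-1). In an epithelial-mesenchymal transition, repressors including the products of ZEB1, SNAI2 and SNAI1 bind E-box elements and lower CDH1 and claudin transcription, while vimentin (VIM), an intermediate filament of mesenchymal cells, rises. Hypoxia acts on many genes through hypoxia-inducible factors, which bind a short core element.

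Depth could not be read from the files, since FPKM carries no counts, and the spread of the 3 replicates is the measure of precision. Between 15285 and 16048 gene names exceeded 0.5 FPKM in a library, and Pearson's r between replicates, across genes on the log2 scale, was 0.965 to 0.988. Transcripts under 300 bases held between 57.0% and 87.6% of the summed FPKM of a library. Rescaling each library to the same total (TPM, transcripts per 1000000) moved the median log2 fold change of all genes at 24 h from -0.05 to -0.67. TPM over transcripts of at least 300 bases moved it to -0.12, and scaling by the median of ratios moved it to 0.00. Values below are as deposited unless another scaling is named.

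The libraries held most markers of colon epithelium and few of other cell types. Of 9 colon epithelial markers 6 passed the filter, with the keratin KRT8, the most abundant over all 12 libraries, at 988 ± 190 FPKM (SD, n = 3) at 0 h and 880 ± 93.6 at 24 h. The keratin KRT19, chosen after its values were seen, went from 490 ± 52.2 to 971 ± 50.6 FPKM (log2 fold change 0.99, limma adjusted p = 1.7e-05) and was above KRT8 at 24 h, whereas KRT18 had a value of -0.20 (adjusted p = 0.32) and the median of the 6 genes was -0.18. VIL1, GPA33 and CDH17 did not pass. The 5 endothelial markers summed to at most 0.104 FPKM in any 0 h or 24 h library. Of the 8 fibroblast markers only the collagen gene COL1A1 passed (1.92 ± 0.206 FPKM at 0 h and 6.87 ± 1.67 at 24 h, SD, n = 3), with COL1A2, LUM and FAP at 0 FPKM in all libraries of both times. Among 5 immune markers only CD68, a lysosomal protein, passed (2.01 ± 0.270 and 10.2 ± 3.68 FPKM, SD, n = 3), with PTPRC and CD3E at 0. COL1A1 and CD68 were higher at 24 h together with the junction genes below, and any part of other cells in those results was not tested.

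At 24 h the epithelial genes CDH1, CLDN3 and CLDN4 rose by more than 2-fold. CLDN7 rose and TJP1 fell by less than 2-fold at an adjusted p under 0.05, and no change was called for EPCAM, OCLN, VIM or ZEB1. The test was limma on log2(FPKM + 0.5) in 1 fit of the 12 libraries, with p adjusted by Benjamini-Hochberg, and a gene was called where its fold change exceeded 2 (1 on the log2 scale) at an adjusted p under 0.01, the limits the study itself used. This is the main rule below. On this scale the change of low genes is understated. By this rule 3 of the 9 tested genes were higher and 0 were lower, against backgrounds of 8.76% and 9.51% of all genes tested. With an adjusted p under 0.05 and no limit on the fold change, 4 were higher and 1 was lower, against 25.0% and 30.3% of all genes. Every 24 h library lay above every 0 h library for 4 genes and below for 2, against backgrounds of 27.6% and 32.8%. The median log2 fold change of the 9 genes was 0.63, beside -0.05 for all 16680. It was 0.36 without replicate 1 at 0 h and -0.24 under TPM, where the median of all genes was -0.67. Under TPM the main rule called 0 of the 9 higher and 1 lower, beside 215 and 3893 of all 16680 genes. Without replicate 2 it called 1 higher and 0 lower, beside 945 and 1242 of all genes.

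At 1 h and 2 h none of the 9 genes was called by either rule. The backgrounds were as small: by the main rule 0.00600% of genes (1 gene) at 1 h and 0.0180% (3 genes) at 2 h, and by adjusted p alone 0.00600% and 0.312%. At an unadjusted p under 0.05, 0 of the 9 genes passed at 1 h and 2 passed at 2 h. Of all 16680 genes, 769 passed at 1 h and 2547 at 2 h. Under TPM, CDH1, TJP1 and OCLN were lower at 2 h at an adjusted p under 0.05, 3 of 9 against a background of 54.2% of all genes. CLDN4 was the gene whose libraries did not overlap those of 0 h at either early time, being higher at both. The backgrounds for such separation were 6.36% higher and 7.33% lower at 1 h, and 12.2% higher and 13.1% lower at 2 h.

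**Figure D1:**
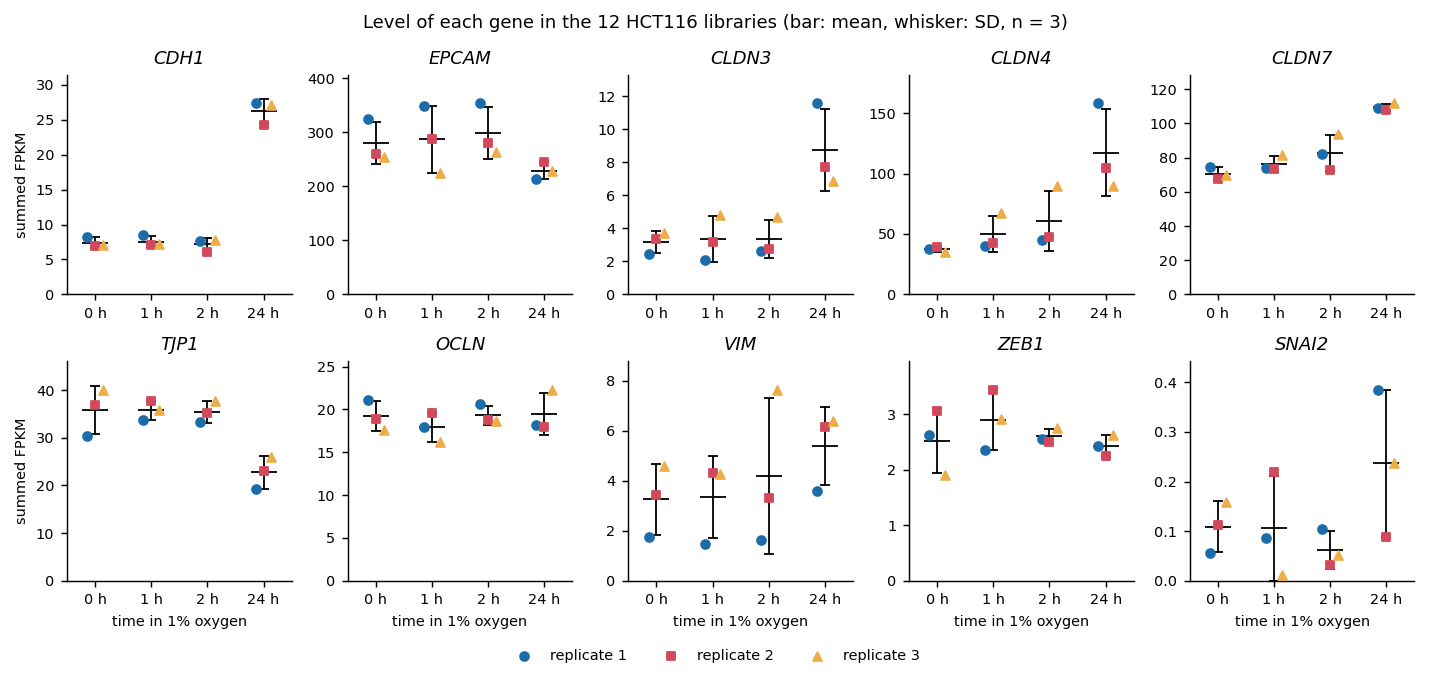
Summed FPKM (y axis, from 0, a separate scale for each gene) of the 10 genes against time in 1% oxygen (x axis), with 1 symbol per replicate, the mean as a bar and the SD as whiskers (n = 3). The 24 h libraries of CDH1, CLDN3, CLDN4 and CLDN7 lie above all 0 h libraries, those of TJP1 and EPCAM lie below, and VIM is lowest in replicate 1 at each time.

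CDH1 (ENSG00000039068; hg19 chromosome 16, 68771195 to 68869440, plus strand) encodes E-cadherin, the adhesion receptor of the adherens junction. Its 3 libraries had 8.26, 6.91 and 7.10 FPKM at 0 h and 27.4, 24.3 and 27.2 FPKM at 24 h (replicates 1, 2 and 3 in this order, here and below). The 24 h libraries were all more than 24 FPKM and those of 0 h all under 9, with no overlap. The mean went from 7.42 ± 0.731 to 26.3 ± 1.72 FPKM (SD, n = 3), 3.54 times the 0 h mean, with a log2 fold change of 1.76 (SE 0.13, limma adjusted p = 8.5e-07). At 1 h the libraries had 8.50, 7.01 and 7.19 FPKM, and at 2 h 7.59, 6.06 and 7.85 FPKM. These values overlapped 0 h at both times, and the 95% confidence intervals of the log2 fold change were -0.25 to 0.30 at 1 h and -0.33 to 0.23 at 2 h. Under TPM the 24 h rise kept its direction but lost the call (log2 fold change 0.88, limma adjusted p = 0.067).

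Nearly all CDH1 RNA was the full-length coding form. The 16-exon transcript ENST00000261769 (4889 bases) had 6.93 ± 1.06 FPKM at 0 h and 23.6 ± 2.55 at 24 h (SD, n = 3) and held 92.5% of the FPKM of the gene over all libraries. It was the single transcript of the gene above 0.5 FPKM in at least 3 libraries, so transcript shares were not tested for CDH1. A 2759-base transcript without a defined coding sequence, ENST00000562836, reached 4.94 FPKM in replicate 1 at 24 h and 0.947 FPKM in replicate 2 at 0 h. It was under 0.01 FPKM in the other 10 libraries, so this second form was seen in 1 library at each of 0 h and 24 h. A 6192-base form of class j had 0.0863 ± 0.0836 and 0.437 ± 0.0874 FPKM (SD, n = 3).

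EPCAM (ENSG00000119888; chromosome 2, 47572297 to 47614740, plus strand), an epithelial cell adhesion protein that associates with claudins, had the highest level of the 10 genes. It had 325, 259 and 255 FPKM at 0 h and 213, 245 and 229 FPKM at 24 h. All 24 h libraries were below all 0 h libraries. The log2 fold change was -0.28 (SE 0.16, 95% confidence interval -0.63 to 0.07, limma adjusted p = 0.16), which was not called. Under TPM it was -1.15 and passed an adjusted p under 0.05 (0.042), as did 41.1% of all genes in this direction, and without a replicate it ranged from -0.38 to -0.12. At 1 h the libraries had 348, 288 and 224 FPKM and at 2 h 354, 280 and 263 FPKM. Replicate 1 was the highest library at 0, 1 and 2 h and the lowest at 24 h. ENST00000490733, a 752-base retained-intron form, held a share of 26.4% ± 1.85 at 0 h and 25.6% ± 5.32 at 24 h (SD, n = 3). The 9-exon coding form ENST00000263735 held 72.4% ± 2.03 and 73.4% ± 5.58. Neither share differed by more than its spread (limma adjusted p = 0.91 and 0.88). The next form, the 1530-base coding ENST00000405271, had 2.27 ± 0.699 and 1.13 ± 0.371 FPKM (SD, n = 3).

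CLDN3, CLDN4 and CLDN7 rose at 24 h, and differences between the sizes of their changes were not tested. Of the other claudins in the tight-junction list, named after their values were seen, CLDN12 (log2 fold change 0.16, limma adjusted p = 0.34) and CLDN15 (0.43, adjusted p = 0.067) were tested and not called, and CLDN1 and CLDN2 did not pass the filter. CLDN3 (ENSG00000165215; chromosome 7, 73183327 to 73184600, minus strand) is a single-exon gene for a sealing claudin and was the lowest of these 3. It had 2.45, 3.39 and 3.72 FPKM at 0 h and 11.6, 7.74 and 6.90 FPKM at 24 h, without overlap. The mean rose from 3.19 ± 0.658 to 8.74 ± 2.50 FPKM (SD, n = 3), a log2 fold change of 1.31 (SE 0.28, limma adjusted p = 0.0020). The call was lost by a small margin without replicate 1 at 24 h, the highest library (log2 fold change 1.10, adjusted p = 0.0101), or without replicate 1 at 0 h (1.16, adjusted p = 0.0109), and also without all libraries of replicate 1 (0.95, adjusted p = 0.0213) or of replicate 2 (1.42, adjusted p = 0.0316). Under TPM it was 0.48 (adjusted p = 0.252). The mean was 3.36 ± 1.38 FPKM at 1 h (SD, n = 3), where replicates 2 and 3 had 3.15 and 4.84 FPKM and replicate 1 was lowest, and the libraries had 2.63, 2.78 and 4.67 FPKM at 2 h. Both times overlapped 0 h, with replicate 3 highest.

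CLDN4 (ENSG00000189143; chromosome 7, 73213872 to 73247020, plus strand) lies next to CLDN3 and encodes a claudin of tight epithelia. Its libraries had 37.6, 39.0 and 35.2 FPKM at 0 h, 40.3, 42.2 and 67.3 at 1 h, 45.3, 47.9 and 89.5 at 2 h, and 158, 104 and 89.6 at 24 h. The 0 h libraries were the lowest of the series, and replicate 3 stood apart from replicates 1 and 2 at 1 h and 2 h. The log2 fold change was 0.38 (SE 0.27, limma adjusted p = 0.996) at 1 h, 0.63 (SE 0.27, adjusted p = 0.31) at 2 h and 1.60 (SE 0.27, adjusted p = 3.6e-04) at 24 h. The highest 2 h library (89.5 FPKM) and the lowest 24 h library (89.6 FPKM) were nearly equal. The 24 h call was lost without replicate 2 (log2 fold change 1.70, adjusted p 0.0117) and under TPM (0.73, adjusted p 0.175).

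CLDN7 (ENSG00000181885; chromosome 17, 7163222 to 7167302, minus strand), a claudin also found along the lateral membrane, had close replicates at 24 h. It had 74.5, 67.5 and 70.1 FPKM at 0 h, 73.8, 73.3 and 81.6 at 1 h, 81.9, 72.7 and 93.8 at 2 h, and 109, 108 and 112 at 24 h. The 24 h libraries lay above all others, and 1 h and 2 h overlapped 0 h. The log2 fold change at 24 h was 0.63 (SE 0.098, limma adjusted p = 1.9e-04), which is under the 2-fold limit of the main rule. The direction turned under TPM (-0.24, adjusted p = 0.68), where it stood 0.44 above the median of all genes. The assembled locus also carried transcripts named CTDNEP1, GABARAP, CTD-2545G14.7 and RP1-4G17.5, so the split of fragments among them is that of the authors' estimate.

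CLDN3, CLDN4 and CLDN7 moved together at 24 h, and the 250 bases before their annotated starts are shown for that reason. Windows came from RefSeq on GRCh38.p14, which has other coordinates than the hg19 files, and 7 of the 10 genes had one; CDH1, EPCAM and SNAI2 are named only. Capitals mark 2 motifs. The first is the core bound by hypoxia-inducible factors, searched as ACGTG on both strands and then as GCGTG on both strands. The second is the E-box bound by ZEB and Snail proteins, searched as CAGGTG on both strands, where a match on the other strand reads CACCTG, and no match of the first overlapped one of the second. Each sequence is written 5′ to 3′ on the strand of its gene and ends at the base before the start.
CLDN3, chr7:73770271-73770520, minus strand: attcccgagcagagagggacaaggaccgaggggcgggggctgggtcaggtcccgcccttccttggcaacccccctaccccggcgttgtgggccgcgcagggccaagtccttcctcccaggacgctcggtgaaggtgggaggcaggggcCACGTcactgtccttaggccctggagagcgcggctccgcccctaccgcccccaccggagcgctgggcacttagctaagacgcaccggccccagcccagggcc
CLDN4, chr7:73830746-73830995, plus strand: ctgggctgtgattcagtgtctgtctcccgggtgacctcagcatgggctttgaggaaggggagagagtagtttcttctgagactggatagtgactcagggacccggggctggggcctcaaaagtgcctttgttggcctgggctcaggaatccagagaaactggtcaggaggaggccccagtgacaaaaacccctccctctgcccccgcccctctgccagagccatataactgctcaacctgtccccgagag
CLDN7, chr17:7262479-7262728, minus strand: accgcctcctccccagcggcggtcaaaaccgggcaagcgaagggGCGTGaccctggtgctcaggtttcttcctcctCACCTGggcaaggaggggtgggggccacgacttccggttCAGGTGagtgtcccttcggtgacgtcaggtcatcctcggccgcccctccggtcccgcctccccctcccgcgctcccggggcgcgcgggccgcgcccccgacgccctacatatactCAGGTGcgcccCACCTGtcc

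CLDN3 held 1 hypoxia core, 102 bases before the start, and no E-box. CLDN4 held neither motif. CLDN7 held 1 hypoxia core, at position -206, and 4 E-boxes, at -174, -135, -20 and -9 counted to the first base of each. Over 35116 RefSeq windows of the same 250 bases, 43.2% held a hypoxia core and 17.5% an E-box. A match of letters is a description of these windows and says nothing about binding in these cells.

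TJP1 (ENSG00000104067; chromosome 15, 29991571 to 30261118, minus strand) encodes the scaffold ZO-1, which ties claudins and occludin to actin, and moved opposite to CLDN3, CLDN4 and CLDN7. It had 30.3, 36.9 and 40.1 FPKM at 0 h, 33.7, 37.8 and 35.7 at 1 h, 33.2, 35.2 and 37.7 at 2 h, and 19.2, 23.1 and 25.9 at 24 h. The 24 h libraries lay below all 9 others. The log2 fold change was -0.65 (SE 0.13, limma adjusted p = 0.0010), a fall of less than 2-fold that kept its direction under all 4 scalings and was called by the main rule under TPM (-1.46, adjusted p = 0.0041), where 23.3% of all genes were called lower. Its 3 leading transcripts by FPKM were ENST00000400011 (6764 bases), which went from 10.7 ± 1.71 to 6.87 ± 3.71 FPKM, ENST00000400007 (1032 bases), from 8.01 ± 1.80 to 3.46 ± 2.30 FPKM, and a 5007-base form of ENST00000545208, from 7.71 ± 1.54 to 5.04 ± 1.21 FPKM (SD, n = 3). All 3 means were lower at 24 h, and none of the TJP1 shares was called by limma on single transcripts. A 7747-base form related to ENST00000346128 (class j) held 0.00203% ± 0.00223 of TJP1 at 0 h and 8.21% ± 10.8 at 24 h (SD, n = 3, limma adjusted p = 0.13), a mean smaller than its spread.

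OCLN (ENSG00000197822; chromosome 5, 68788119 to 68853931, plus strand) encodes occludin, a membrane protein of the tight junction. Its 12 libraries had 21.1, 18.9 and 17.6 FPKM at 0 h, 17.9, 19.6 and 16.2 at 1 h, 20.6, 18.8 and 18.6 at 2 h, and 18.1, 17.9 and 22.3 at 24 h. All time points overlapped. The 95% confidence interval of the log2 fold change at 24 h was -0.24 to 0.27 (limma adjusted p = 0.93). A near-identical partial copy of OCLN lies elsewhere on chromosome 5, so the split of reads between the 2 is uncertain. Its leading transcript, the 1748-base coding form of ENST00000396442, held 35.5% ± 1.60 of OCLN at 0 h and 33.7% ± 2.33 at 24 h (SD, n = 3, limma adjusted p = 0.89). The 958-base ENST00000514370, without a defined coding sequence, had 3.45 ± 0.811 and 3.71 ± 0.395 FPKM (SD, n = 3), and its share was not called (limma adjusted p = 0.87). A 2218-base transcript, ENST00000380766, with no entry in the annotation used here, held 23.2% ± 4.92 of OCLN at 0 h and 19.4% ± 2.07 at 24 h (SD, n = 3, adjusted p = 0.54).

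VIM (ENSG00000026025; chromosome 10, 17270240 to 17279592, plus strand) encodes vimentin and was among the lower of the 10 genes. It had 1.76, 3.43 and 4.59 FPKM at 0 h, 1.45, 4.31 and 4.29 at 1 h, 1.63, 3.30 and 7.65 at 2 h, and 3.61, 6.15 and 6.41 at 24 h. Replicate 1 was the lowest library at each of the 4 times, and the 24 h values overlapped those of 0 h. The log2 fold change was 0.69 at 24 h (SE 0.48, 95% confidence interval -0.37 to 1.74, limma adjusted p = 0.25), an interval that holds both no change and a rise of 3-fold. The value was -0.08 under TPM. With the replicate number as a block, VIM passed an adjusted p under 0.05 (limma adjusted p = 0.022). Same-numbered libraries of 0 h and 24 h were not taken as pairs, so the fit without the block is the main one. The 753-base retained-intron form ENST00000421459 held 5.03% ± 4.43 of VIM at 0 h and 14.2% ± 4.36 at 24 h (SD, n = 3, limma adjusted p = 0.22), and the 1868-base coding transcript ENST00000224237 held the rest among the transcripts that passed the filter. A 2640-base form related to ENST00000544301 had 0.0732 ± 0.0660 and 0.125 ± 0.0486 FPKM (SD, n = 3).

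ZEB1 (ENSG00000148516; chromosome 10, 31607424 to 31818742, plus strand), a zinc-finger repressor of CDH1, stayed near 2.5 FPKM. It had 2.62, 3.06 and 1.90 FPKM at 0 h, 2.35, 3.45 and 2.91 at 1 h, 2.55, 2.50 and 2.76 at 2 h, and 2.42, 2.25 and 2.64 at 24 h. All time points overlapped, and the log2 fold change at 24 h was -0.03 (95% confidence interval -0.40 to 0.35, limma adjusted p = 0.90). Between its 2 transcripts past the filter, the 5423-base form ENST00000320985 held 72.5% ± 26.3 at 0 h and 43.3% ± 1.18 at 24 h, and the 887-base form ENST00000424869 27.5% ± 26.3 and 56.7% ± 1.18 (SD, n = 3). The 0 h replicates spread widely, and neither share was called (limma adjusted p = 0.20 and 0.21). The next form, ENST00000560721 (3368 bases), had 0.136 ± 0.235 and 0.336 ± 0.125 FPKM (SD, n = 3).

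SNAI2 (ENSG00000019549; chromosome 8, 49830157 to 49834299, minus strand), which encodes the repressor Slug, was under 0.5 FPKM in all 12 libraries. It had 0.0563, 0.112 and 0.158 FPKM at 0 h, 0.0852, 0.220 and 0.0111 at 1 h, 0.104, 0.0310 and 0.0516 at 2 h, and 0.385, 0.0886 and 0.237 at 24 h. The times overlapped, and the highest value was that of replicate 1 at 24 h. Nearly all of it came from the 2088-base transcript ENST00000020945.

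**Figure D2:**
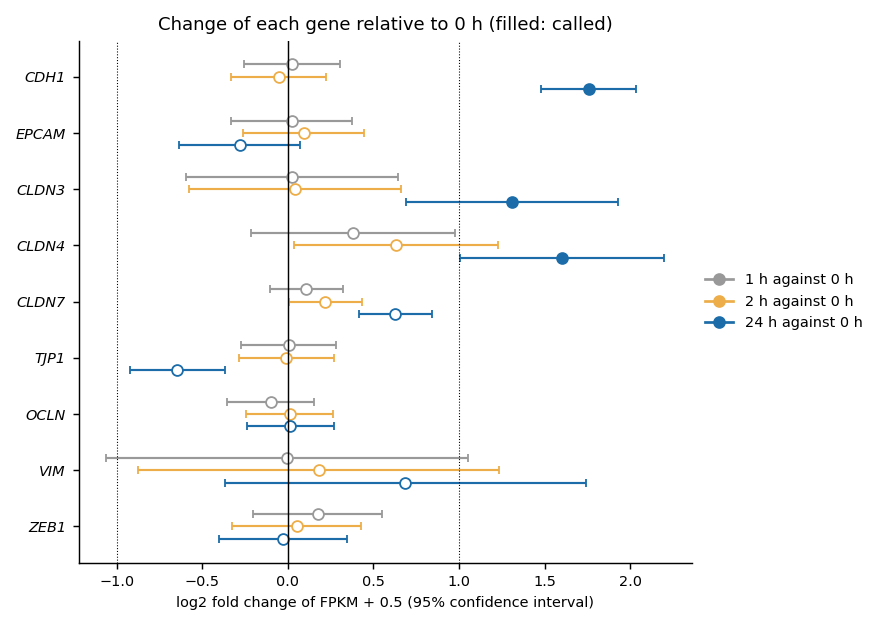
Log2 fold change of FPKM + 0.5 relative to 0 h (x axis) for the 9 tested genes (y axis) at 1, 2 and 24 h, with 95% confidence intervals from the limma fit and filled symbols for called genes. CDH1, CLDN4 and CLDN3 are filled at 24 h, at 1.76, 1.60 and 1.31, and no symbol is filled at 1 h or 2 h.

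The order of the 10 genes by level differed between 0 h and 24 h. FPKM is per length, so levels can be set side by side. At 0 h EPCAM was highest, followed by CLDN7, CLDN4, TJP1, OCLN, CDH1, VIM, CLDN3, ZEB1 and SNAI2. CLDN4 and TJP1 overlapped at 0 h, as did VIM, CLDN3 and ZEB1 in turn. At 24 h the order was EPCAM, CLDN4, CLDN7, CDH1, TJP1, OCLN, CLDN3, VIM, ZEB1 and SNAI2. CDH1 had passed OCLN without overlap (24.3 FPKM or more against 22.3 or less) and overlapped TJP1. CLDN4 and CLDN7 overlapped at 24 h, having been apart at 0 h, and TJP1 also overlapped OCLN at 24 h.

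Between 24 h and 2 h, both in 1% oxygen, the main rule called CDH1 and CLDN3 higher, 2 of the 9 genes against 14.7% of all genes in either direction. The log2 differences were 1.81 (SE 0.13, limma adjusted p = 1.0e-06) for CDH1 and 1.27 (SE 0.28, adjusted p = 0.0028) for CLDN3. CLDN4 was 0.97 higher (SE 0.27, adjusted p = 0.011), CLDN7 0.41 higher (SE 0.098, adjusted p = 0.0042), and TJP1 had a difference of -0.64 (SE 0.13, adjusted p = 0.0013). These share the 24 h libraries with the comparison against 0 h.

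Transcript shares were tested for the 33 transcripts of 7 of these genes that passed the filter. The 1 share called at an adjusted p under 0.05 was that of CLDN7, against a background of 7.45% of 56961 transcripts. It was ENST00000573745, an 871-base form without a defined coding sequence, which went from 0.484% ± 0.292 to 2.71% ± 0.473 of CLDN7 (SD, n = 3, limma adjusted p = 0.0099). It remained a minor form. The 2 leading coding forms, ENST00000360325 (1542 bases) and ENST00000397317 (1228 bases), held 74.5% ± 8.80 and 20.0% ± 8.15 at 0 h, and the first of them 69.3% ± 1.08 at 24 h. The third by level, the 485-base ENST00000574070, held 2.74% ± 1.21 and 2.96% ± 0.261. The call was lost in a fit of the 6 libraries of 0 h and 24 h and when any replicate number was left out, where the number of genes with a called share fell from 2741 to between 136 and 324. CLDN4 stayed at 92.9% ± 2.59 and 89.2% ± 0.886 of its single-exon coding form ENST00000340958 (adjusted p = 0.24). Its next forms, of 4366 and 4318 bases and related to ENST00000466411, had 0.355 ± 0.376 and 1.23 ± 1.43 FPKM at 0 h, and 5.09 ± 3.43 and 1.97 ± 1.29 FPKM at 24 h (SD, n = 3). With untransformed shares 1 share of CLDN4 was called beside that of CLDN7, among 4436 called of 56961 transcripts. With limma's diffSplice, which tests whether the transcripts of a gene change unequally on the log2 scale, CLDN7 and TJP1 were called among 3110 of 10680 genes.

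**Figure D3:**
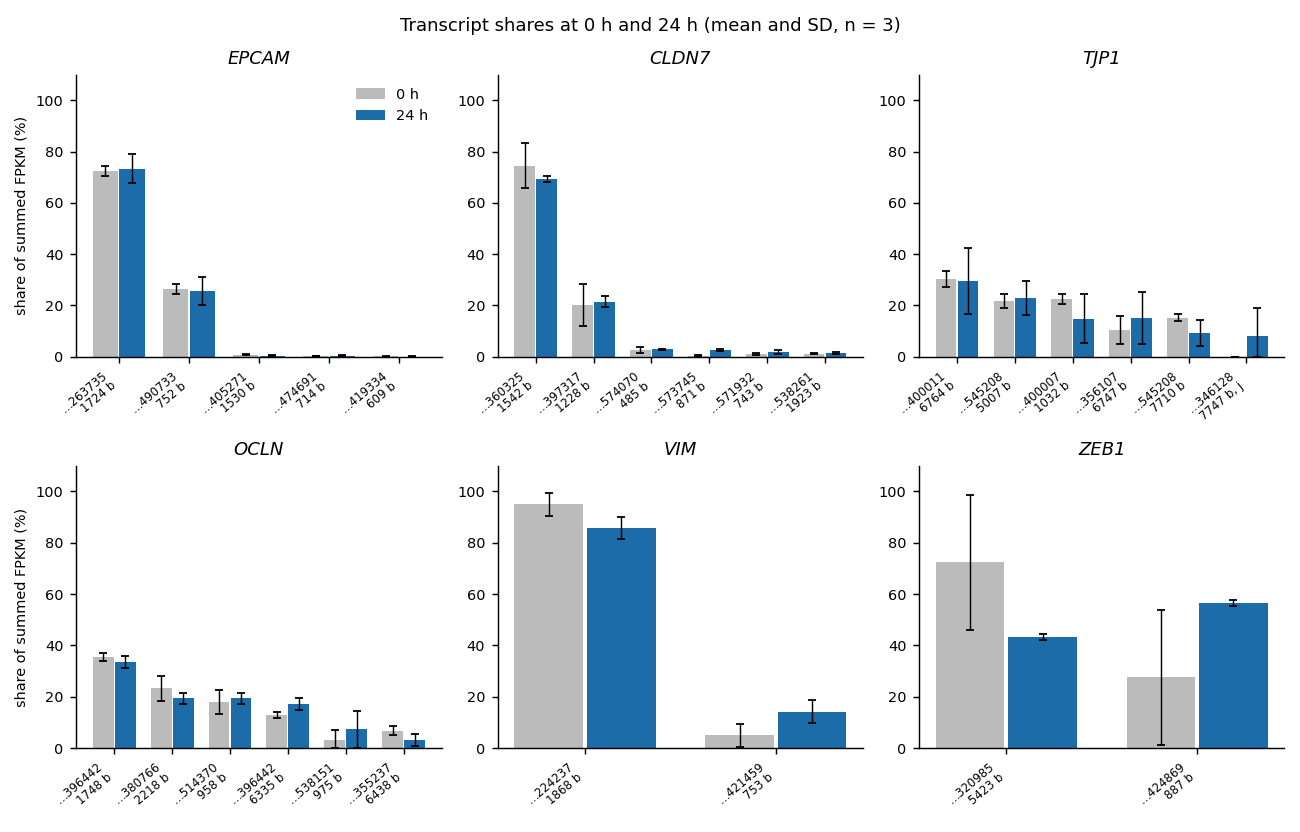
Share of a gene's FPKM (y axis, percent of its transcripts past the filter) held by each transcript at 0 h and 24 h, mean and SD (n = 3), for 6 genes with at least 2 such transcripts. Labels give the last digits of the nearest Ensembl transcript and the length in bases, with j for class j, and the called form of CLDN7, of 871 bases, rises from 0.484% to 2.71%.

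The other genes of the junction complexes were described from lists, and a change of scaling applies to all of them: under TPM the median of each list below other than the hypoxia and the matrix lists was under 0, although above that of all genes (-0.67). Under TPM the main rule called 1 gene higher and 1 lower in each of the adherens-junction, tight-junction and matrix lists, 1 higher and 0 lower among the epithelial regulators, and 0 among the transition factors and the TGF-beta genes. Over all 16680 genes it called 215 higher and 3893 lower under TPM. The counts below stand beside the same backgrounds of all genes as before, 8.76% higher and 9.51% lower by the main rule, and 25.0% and 30.3% at an adjusted p under 0.05. Among 18 adherens-junction and desmosome genes, 3 were called higher and 0 lower, with a median log2 fold change of 0.42. They were PPL (periplakin, 5.18 ± 1.40 to 25.3 ± 1.45 FPKM, log2 fold change 2.21), JUP (plakoglobin, 31.7 ± 6.36 to 85.7 ± 10.2 FPKM, 1.43) and DSP (desmoplakin, 22.9 ± 1.77 to 48.0 ± 10.3 FPKM, 1.03; SD, n = 3). CTNNB1, the beta-catenin that binds E-cadherin and the most abundant over all 12 libraries, had 133 ± 14.6 and 116 ± 9.94 FPKM (log2 fold change -0.20, limma adjusted p = 0.21). The alpha-catenin CTNNA1, chosen after its values were seen, was above it at 24 h, at 166 ± 8.09 FPKM. At an adjusted p under 0.05, 10 of the 18 were higher and 1, PVRL3, was lower.

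Of 20 further tight-junction and polarity genes 18 were tested, 3 were called higher and 0 lower, and the median was 0.51. TJP3, the ZO-3 scaffold and a relative of TJP1, went from 2.46 ± 1.19 to 22.7 ± 2.90 FPKM (log2 fold change 3.04, SE 0.47, limma adjusted p = 1.6e-04), while TJP1 fell. INADL, a polarity scaffold, went from 7.89 ± 0.894 to 32.4 ± 5.37 FPKM (log2 fold change 1.96), and CGN, cingulin, from 4.74 ± 0.676 to 11.6 ± 2.84 (1.19; SD, n = 3). F11R, a junctional adhesion molecule and the most abundant of the list, had 36.8 to 39.0 FPKM in the 0 h libraries and 49.9 to 62.1 FPKM in those of 24 h (log2 fold change 0.52, limma adjusted p = 7.3e-04). With an adjusted p under 0.05, 12 were higher and 1, MARVELD2 (tricellulin), was lower. PARD6B was the 1 gene of the junction lists to pass an adjusted p under 0.05 at 2 h. PARD6B was chosen after its values were seen.

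Among 14 epithelial transcription and splicing regulators, 12 were tested, 2 were called higher and 0 lower, and the median was 0.27. ELF3, an epithelial ETS factor, went from 13.0 ± 4.16 to 133 ± 14.2 FPKM (log2 fold change 3.35, SE 0.54, limma adjusted p = 2.2e-04). ESRP1, which directs epithelial splicing, went from 32.4 ± 2.92 to 76.8 ± 1.14 FPKM (1.24, SE 0.13, adjusted p = 1.1e-05; SD, n = 3). Without replicate 2 the count of 2 fell to 1. The colon factor CDX2 was the 1 gene lower at an adjusted p under 0.05, where 5 were higher.

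Mesenchymal genes were described in a list of factors and one of structural and matrix genes. Of 14 transition factors 8 were tested, 2 were called higher and 0 lower, and the median was 0.42. SOX9 went from 26.9 ± 1.92 to 57.3 ± 14.7 FPKM (log2 fold change 1.05) and SNAI3 from 0.625 ± 0.146 to 1.90 ± 0.959 (1.02; SD, n = 3), both just past the 2-fold limit. Neither was called without replicate 1, without replicate 2, without replicate 1 at 0 h, without a filter or under TPM. The count was 1 with either other pseudocount, class = alone, TPM of at least 300 bases or 6 libraries. It was also 1 without replicate 3 and without any other single library of 0 h or 24 h. HMGA2, a chromatin protein and the most abundant factor, had 82.9 ± 4.08 and 87.9 ± 13.9 FPKM. ZEB2, TWIST2, FOXC2, PRRX1, TCF4 and GSC did not pass the filter.

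Of 20 mesenchymal and matrix genes 11 were tested, 7 were called higher and 0 lower, and the median was 1.16. LOXL2, a collagen cross-linking oxidase, went from 2.77 ± 1.33 to 69.0 ± 8.31 FPKM (log2 fold change 4.48, SE 0.39, limma adjusted p = 2.7e-06). ACTA2 (smooth-muscle actin) rose by 1.90 and ITGA5 (a fibronectin receptor subunit) by 1.64 on the log2 scale. The count fell to 4 without replicate 2. S100A4, the most abundant, had 222 ± 10.3 and 374 ± 121 FPKM (0.70, SD, n = 3). N-cadherin (CDH2), CDH11 and MMP2 were among the 9 genes of the list that did not pass the filter. FN1 (fibronectin, log2 fold change 1.16) and MMP14 (1.08), named after their values were seen, were among the 7 called higher.

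Of 14 TGF-beta pathway genes 13 were tested, 4 were called higher and 0 lower, and the median was 0.63. ID1 went from 93.7 ± 25.5 to 299 ± 41.5 FPKM (log2 fold change 1.70), SMAD3 from 15.0 ± 1.05 to 32.0 ± 4.97 (1.06), SKIL from 1.91 ± 0.314 to 4.64 ± 0.290 (1.10) and LTBP1 from 0.912 ± 0.308 to 2.57 ± 0.792 FPKM (1.11; SD, n = 3). The count of 4 was not stable: it was 2 without replicate 2, without replicate 1 at 0 h, without replicate 2 at 24 h, with a pseudocount of 1, without a filter, from transcripts above 0.5 FPKM, and with TPM of at least 300 bases. In a hypoxia list of 10 genes, read as a check of the treatment, CA9 passed the filter only through its 24 h libraries and so had to differ. The other 9 were called higher at 24 h, and the median with CA9 included was 3.39. NDRG1 rose from 24.1 ± 6.18 to 984 ± 153 FPKM and ANGPTL4 from 1.66 ± 0.143 to 161 ± 27.9. None of the 10 was called at 1 h or 2 h, and ANKRD37 and VEGFA passed an adjusted p under 0.05 at 2 h.

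**Figure D4:**
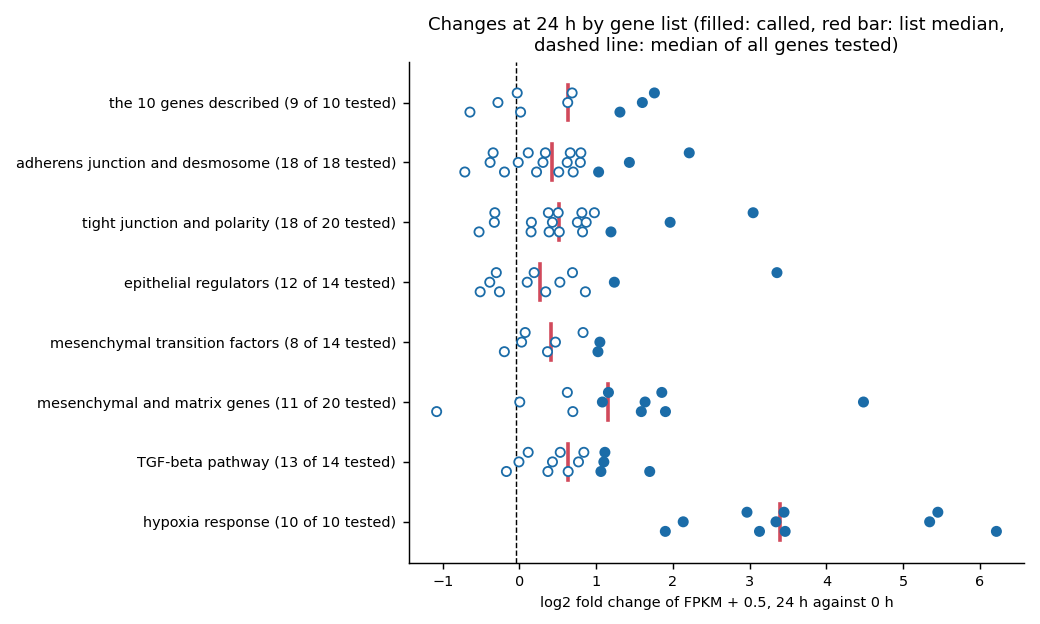
Log2 fold change of FPKM + 0.5 at 24 h against 0 h (x axis) of each tested gene in 8 lists (y axis), filled where called, with the list median as a red bar and the median of all genes, -0.05, as a dashed line. The medians run from 0.27 for epithelial regulators to 3.39 for the hypoxia list, and the epithelial and the matrix lists both hold filled points to the right.

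**Figure D5:**
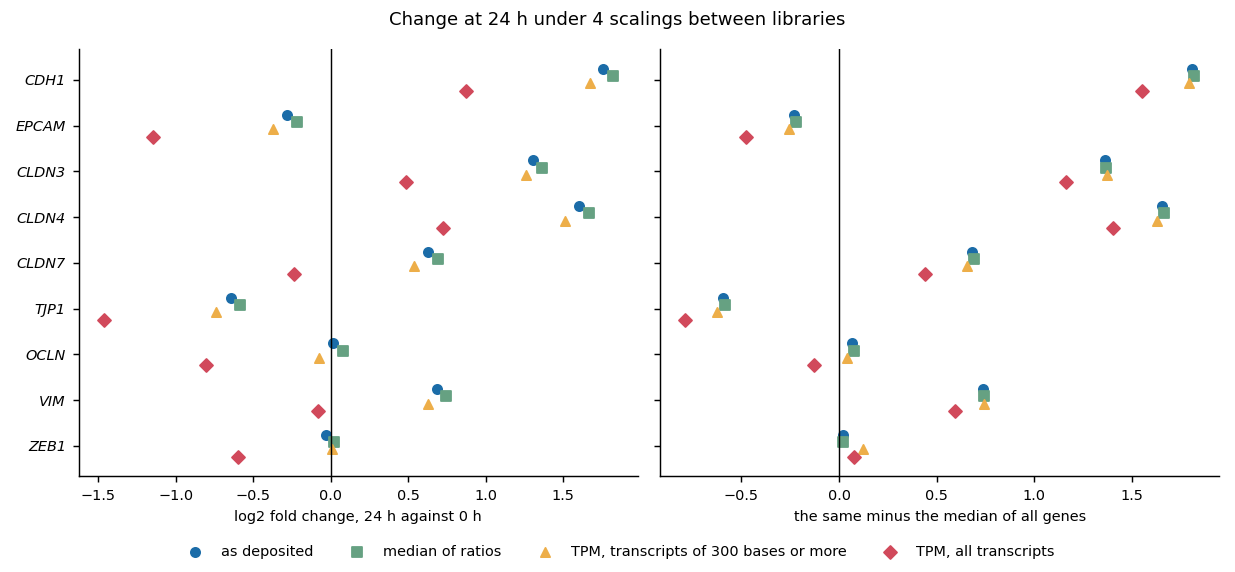
Log2 fold change at 24 h against 0 h (left, x axis) of the 9 tested genes (y axis) as deposited and under 3 other scalings, and the same values minus the median of all genes under that scaling (right). Under TPM over all transcripts CLDN7, OCLN and VIM turn negative on the left. On the right CDH1, CLDN3, CLDN4, CLDN7, VIM and, by little, ZEB1 stand above 0 under each scaling while TJP1 and EPCAM stand below.

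Distances from the median of all genes are a description only, since much of a scaling common to all genes cancels in them. Over the 4 scalings CDH1 stood between 1.55 and 1.82 above that median on the log2 scale, CLDN4 between 1.40 and 1.66, CLDN3 between 1.16 and 1.37 and CLDN7 between 0.44 and 0.69. VIM stood between 0.59 and 0.74 above it, and ZEB1 between 0.02 and 0.12. TJP1 stood between -0.79 and -0.58, and EPCAM between -0.47 and -0.22. OCLN was the 1 gene that changed side, from 0.07 with the values as deposited to -0.13 under TPM.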

How the data were processed

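RNA of 12 HCT116 libraries had been sequenced. Per the labels and the paper's methods, the authors processed the reads with CASAVA 1.8.2, aligned them to hg19, assembled transcripts per sample with Cufflinks, merged them against Ensembl and deposited FPKM values of 293768 merged transcripts, with no scaling between libraries named. The authors' own gene tests used counts, which were not analysed here. Depth per library cannot be computed from FPKM, and no counting interval is given.

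Here 286562 transcripts of class = or j were summed per gene name. Levels, as log2(FPKM + 0.5), were tested with limma 3.58.1 (lmFit, eBayes with trend) in R 4.3.3, on genes above 0.5 FPKM in at least 3 libraries, over all 12 libraries. Transcript shares were tested in the same way on the arcsine square root of the share. Every p is two-sided, and n = 3 at each time. Gene coordinates and transcript types came from GENCODE release 44 on GRCh37, and 250-base windows before start sites from RefSeq on GRCh38.p14. Tables and figures used Python 3.11.15, numpy 2.4.6, pandas 2.3.3 and matplotlib 3.10.9. The steps were tested on simulated data.

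All 10 genes are named; of each further list, up to 4 called genes with the greatest change at 24 h and the most abundant gene are named, and of transcripts the 3 most abundant per gene (where more than traces were listed) and any with a called share. One gene that this rule names is not reported here. The genes and lists were chosen with earlier results of these data known. Alternatives were the pseudocount, the filter, the transcripts summed, the scaling between libraries, the libraries fitted, a block for the replicate number and leaving out replicates. The labels do not say what a replicate number marks, but same-numbered libraries of 0 h and 2 h deviated together from their group means (correlations of 0.129 to 0.362 over 3 pairs, each above 0.1), a limit that not every pair of 0 h with 1 h or with 24 h met. The comparison of 24 h with 2 h was added after the values were seen.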

Additional observations from a re-analysis of the deposited data

Results flagged for a closer look

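By the main rule, with its 2-fold limit, the effect of 24 h in 1% oxygen differed from that of 2 h for CDH1 and CLDN3. The rule called 14.7% of all genes here. It was tested as the difference between both effects in the limma fit of all 12 libraries, an alternative added after the values had been seen. CLDN4, CLDN7 and TJP1 (lower) also passed an adjusted p under 0.05 without reaching the 2-fold limit. Of all 16680 genes 8435 passed that p. For CDH1 the difference was 1.81 on the log2 scale (SE 0.13, adjusted p = 1.0e-06), and the 3 libraries at 24 h were each above the 3 at 2 h. For CLDN3 it was 1.27 (SE 0.28, adjusted p = 0.0028), again with no overlap between the times.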

How the results depend on the processing

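CDH1 was called higher at 24 h under 20 of 21 alternatives, the exception being TPM, with a log2 fold change of 0.88 to 1.83 over all of them. Of 9 genes, 5 passed an adjusted p under 0.05 alone and 1 (TJP1, lower) was called under TPM. Leaving out replicates gave 1 to 3 called, with CDH1 the only one left without replicate 2. By the main rule none of the 9 was called at 1 h or 2 h under any alternative. At an adjusted p under 0.05, CDH1 (-0.97, adjusted p 0.0403), TJP1 (-1.06, adjusted p 0.0373) and OCLN (-1.01, adjusted p 0.0403) were lower at 2 h under TPM, as were 54.2% of all genes, and none passed at 1 h.

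Over all genes, adjusted p alone gave 9228 at 24 h and 52 at 2 h. Scaling moved the split at 24 h from 1462 higher and 1586 lower to 215 and 3893 under TPM. At 2 h the count was 3, and it was 6 with a pseudocount of 0.1, 5 from transcripts above 0.5 FPKM, 390 under TPM, 0 without a filter, with TPM of at least 300 bases or with 6 libraries, and 0 to 6 without a replicate. At 1 h it was 1, and 31 under TPM, 0 without a filter, with TPM of at least 300 bases, with 6 libraries or with a replicate block, and 0 to 3 without a replicate. Genes with a called transcript share numbered 2741, 804 with 6 libraries and 136 to 324 without a replicate.

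The replicate number was also fitted as a block. Deviations of same-numbered libraries correlated at -0.0008 to 0.242 between 0 h and 24 h (3 pairs), and not every library correlated best with its own number, so the numbers were not taken as pairs there. They met the limit of 0.1 between 0 h and 2 h (0.129 to 0.362) but not between 0 h and 1 h (0.0954 to 0.340). Over all times the mean was 0.154 for 18 same-numbered pairs and -0.0768 for 36 others. The replicate block gave 4 genes and no call among the 9 at 2 h. At 24 h it gave 3106 genes and the same 3 calls, and VIM (0.69) passed an adjusted p under 0.05 (0.0216), which it did not without the block (0.251).

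Signs turned under some alternatives. TPM moved the median of all genes to -0.67 at 24 h, -0.88 at 2 h and -0.53 at 1 h, and the turns under TPM are to be read against that common shift. Under TPM, log2 fold changes at 24 h were -0.24 for CLDN7, -0.80 for OCLN and -0.084 for VIM. At 2 h they were -0.996 for EPCAM, -0.73 for CLDN3, -0.44 for CLDN4, -0.86 for CLDN7, -1.01 for OCLN, -0.59 for VIM and -0.68 for ZEB1. At 1 h they were -0.52 for CDH1, -0.61 for EPCAM, -0.46 for CLDN3, -0.25 for CLDN4, -0.52 for CLDN7, -0.61 for TJP1 and -0.30 for ZEB1. With TPM of at least 300 bases, OCLN was -0.077 and ZEB1 0.0077 at 24 h. With median-of-ratios scaling ZEB1 was 0.025 at 24 h and TJP1 0.0099 at 2 h, and ZEB1 was 0.40 at 24 h from transcripts above 0.5 FPKM. Without a replicate, the ranges at 24 h were -0.14 to 0.13 for OCLN and -0.24 to 0.14 for ZEB1. At 2 h they were -0.15 to 0.056 for CDH1, -0.035 to 0.21 for EPCAM, -0.19 to 0.19 for CLDN3, -0.12 to 0.078 for TJP1, -0.047 to 0.081 for OCLN, -0.33 to 0.64 for VIM and -0.14 to 0.20 for ZEB1. At 1 h they were -0.057 to 0.099 for CDH1, -0.13 to 0.19 for EPCAM, -0.24 to 0.28 for CLDN3, -0.11 to 0.092 for TJP1 and -0.33 to 0.43 for VIM. None of these was called by the main rule. At an adjusted p under 0.05, CLDN7 passed at 24 h as deposited (0.63, adjusted p 1.9e-04) and VIM at 24 h with the replicate block. CDH1, TJP1 and OCLN passed at 2 h under TPM. The cause was not tested.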
